A study of Homo sapiens with 6 samples.

Results

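The S100 calcium-binding proteins were described through 10 genes: S100B, S100A1, S100A2, S100A3, S100A4, S100A6, S100A10, S100A11, S100A13 and S100A16. They were taken by gene name from a table of 57914 genes, and each name matched 1 gene of that table. Their RNA was compared between A375 cells sorted for high and for low Aldefluor signal.

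S100 proteins are small proteins that bind calcium through a pair of EF-hand loops and mostly work as dimers. Calcium binding exposes a surface with which they contact target proteins such as annexins or myosin, and some members are also released from cells and bind receptors such as RAGE. S100B is a marker of melanocytic and glial cells that is used in the diagnosis and follow-up of melanoma. Nearly all other family genes lie in a cluster on the long arm of chromosome 1.

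A375 is an established human melanoma cell line. All 6 libraries came from A375 cells with no further genetic or drug treatment in the labels, grown in high-glucose DMEM with 10% serum and stained with Aldefluor, a fluorescent substrate of aldehyde dehydrogenases. Flow cytometry collected the brightest 5% (ALDH_High, 3 libraries) and the dimmest 5% (ALDH_Low, 3 libraries) for stranded mRNA sequencing. The labels do not say whether the 3 libraries of a group came from separate cultures, so p-values measure the spread between these libraries, which may be technical, and all values are for 1 cell line.

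The libraries held 26692868 to 37830603 counts in all. Levels are given in TPM, the authors' measure scaled by transcript length and library size, which can be compared between genes. Differences are log2 fold changes of ALDH_High over ALDH_Low from edgeR's quasi-likelihood test, with a Benjamini-Hochberg adjusted p over 17047 tested genes and a threshold of 0.05. As a check of the labelled cell type, the melanocytic factor SOX10 was at 366 to 447 TPM in ALDH_High and 102 to 116 TPM in ALDH_Low and rose (log2 fold change 1.79), while MITF, another melanocytic factor, stood at 5.67 to 6.95 TPM and 8.41 to 14.9 TPM and fell (-0.92). The pigment cell genes PMEL, MLANA, TYR, TYRP1 and DCT were at most 0.53 TPM in every library. The leukocyte gene PTPRC was at most 0.14 TPM in every library.

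Promoter sequence is shown for S100A1, which rose most, and for the 3 searched genes whose promoters held an AP-1 motif. Of the 10 genes, 9 had an entry in the RefSeq promoter table (GRCh38.p14), with 13 starts between them. S100A5, a further gene of the cluster, was searched as well, and other genes of the cluster were not. The 250 bases before each start, 15 windows in all, were searched on both strands for 5 motifs. The stretches are written 5′ to 3′ on the gene's strand, capitals mark the AP-1 match TGANTCA, and S100A1 is limited to the part of its window that no annotated exon covers. S100A2 and S100A5 are each represented by 1 of their starts. The stretches of S100A1, S100A2 and S100A5 precede RefSeq starts that lie inside the GENCODE spans of these genes, and the stretch of S100A3 lies inside the span of S100A4.
S100A1, chr1:153628249-153628383, plus strand: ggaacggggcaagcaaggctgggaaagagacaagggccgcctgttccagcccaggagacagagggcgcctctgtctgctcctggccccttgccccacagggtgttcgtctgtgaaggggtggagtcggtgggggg
S100A2, chr1:153565845-153566094, minus strand: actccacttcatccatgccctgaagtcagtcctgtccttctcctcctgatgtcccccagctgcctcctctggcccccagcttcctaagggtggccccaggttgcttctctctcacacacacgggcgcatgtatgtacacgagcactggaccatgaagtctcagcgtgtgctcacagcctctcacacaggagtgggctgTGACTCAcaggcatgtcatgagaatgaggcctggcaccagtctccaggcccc
S100A3, chr1:153549259-153549508, minus strand: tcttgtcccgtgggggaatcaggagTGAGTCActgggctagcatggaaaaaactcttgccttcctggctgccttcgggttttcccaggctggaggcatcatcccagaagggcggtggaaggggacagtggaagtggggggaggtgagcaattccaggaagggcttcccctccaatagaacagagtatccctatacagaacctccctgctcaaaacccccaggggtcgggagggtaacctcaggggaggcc
S100A5, chr1:153540935-153541184, minus strand: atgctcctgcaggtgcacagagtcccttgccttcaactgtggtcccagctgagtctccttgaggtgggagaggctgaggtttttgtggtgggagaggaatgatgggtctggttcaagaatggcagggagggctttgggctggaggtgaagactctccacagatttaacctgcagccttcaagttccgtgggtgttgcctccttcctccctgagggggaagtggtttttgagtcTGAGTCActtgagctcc
The AP-1 match began 52 bases before the start in S100A2, 225 bases before it in S100A3 and 17 bases before it in S100A5. TGANTCA occurred in 3 of the 15 windows searched here and in 6.57% of all 35116 promoter windows of the same length. S100A5 is not among the 10 genes, whose 13 windows held only the matches of S100A2 and S100A3. The TFAP2 letters GCCNNNGGC, which occurred in 19.8% of all windows, were found before the other start of S100A2 and before S100A6. The E-box CATGTG (9.42% of all windows) was found before 1 start each of S100A13 and S100A16, and neither the E-box CACGTG (6.34%) nor the SOX letters AACAAT (8.98%) was found in a window of these genes. The S100A1 window held none of the 5 motifs. These matches describe the letters only.

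S100B and S100A1 rose, S100A2 fell, and the other 7 genes did not pass the threshold. Among all tested genes 20.6% were called, 10.8% higher and 9.83% lower. The median log2 fold change of the 10 genes was -0.23, beside -0.013 over all genes tested. The former was -0.40 without ALDH_High 1, -0.14 without ALDH_High 2, -0.13 without ALDH_High 3 and -0.14 without ALDH_Low 1. The group values did not overlap in CPM, counts scaled to library size, for 4 of the 10 genes, S100B, S100A1, S100A2 and S100A13, and for 37.8% of all tested genes.

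**Figure D1:**
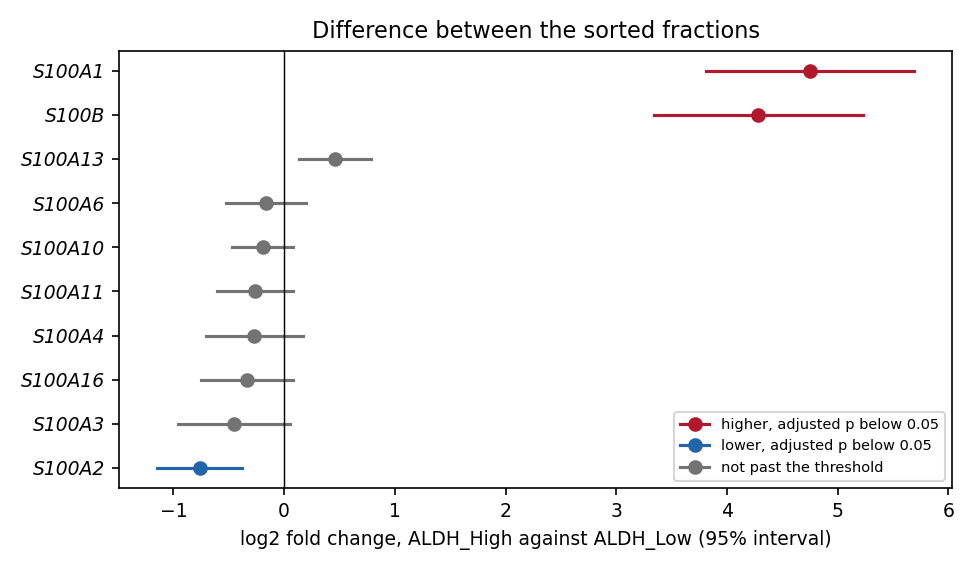
Log2 fold change of ALDH_High over ALDH_Low for the 10 S100 genes, with bars for the 95% confidence interval of edgeR's quasi-likelihood fit. S100A1 (4.75) and S100B (4.28) stand far to the right, S100A2 (-0.76) passed the threshold on the low side, and the other 7 lie between -0.46 and 0.46.

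S100B, which lies apart from the cluster on chromosome 21 (ENSG00000160307, chr21:46598604-46605208, minus strand, GRCh38), was at 60.2, 54.9 and 54.3 TPM in ALDH_High 1, 2 and 3. In ALDH_Low 1, 2 and 3 it was at 2.22, 1.04 and 5.17 TPM. The groups were far apart, the ALDH_High libraries lay close together, and ALDH_Low 3 was the highest of the low group. These levels rested on 936, 1051 and 1001 counts in ALDH_High and on 49, 18 and 88 counts in ALDH_Low. The log2 fold change was 4.28 (SE 0.42, edgeR quasi-likelihood adjusted p 9.03e-05), which is 19.5-fold, and the 95% confidence interval ran from 3.34 to 5.23 on the log2 scale. Without ALDH_Low 3 the log2 fold change was 5.06. In a bulk sample, fewer cells that express a gene and less of its RNA per cell cannot be told apart.

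S100A1, which is best known from heart and skeletal muscle, where it regulates calcium handling, lies on chromosome 1 (ENSG00000160678, chr1:153627926-153632039, plus strand). It was at 71.5, 98.7 and 87.5 TPM in ALDH_High 1, 2 and 3 and at 1.69, 1.56 and 6.03 TPM in ALDH_Low 1, 2 and 3. The groups were again far apart, and ALDH_Low 3 again stood above the other low libraries. The counts were 683, 1161 and 992 in ALDH_High against 23, 17 and 63 in ALDH_Low. The log2 fold change was 4.75 (SE 0.42, edgeR quasi-likelihood adjusted p 4.71e-05), or 26.9-fold, with a 95% confidence interval of 3.81 to 5.69 on the log2 scale. It was 5.67 without ALDH_Low 3. The authors' deposited table gives log2 coefficients against a further group that was not analysed here, and in it the high group exceeded the low group by 4.29 for S100B and by 4.73 for S100A1.

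In ALDH_High, S100B and S100A1 together made up 2.07 ± 0.40% of the summed TPM of the 10 genes, against 0.0760 ± 0.0596% in ALDH_Low (SD, n = 3 each). The summed TPM itself was 7017 ± 1004 in ALDH_High and 7735 ± 729 in ALDH_Low, and the groups overlapped. S100A6 alone carried 41.7 ± 0.96% of that sum in ALDH_High and 41.4 ± 0.67% in ALDH_Low.

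**Figure D2:**
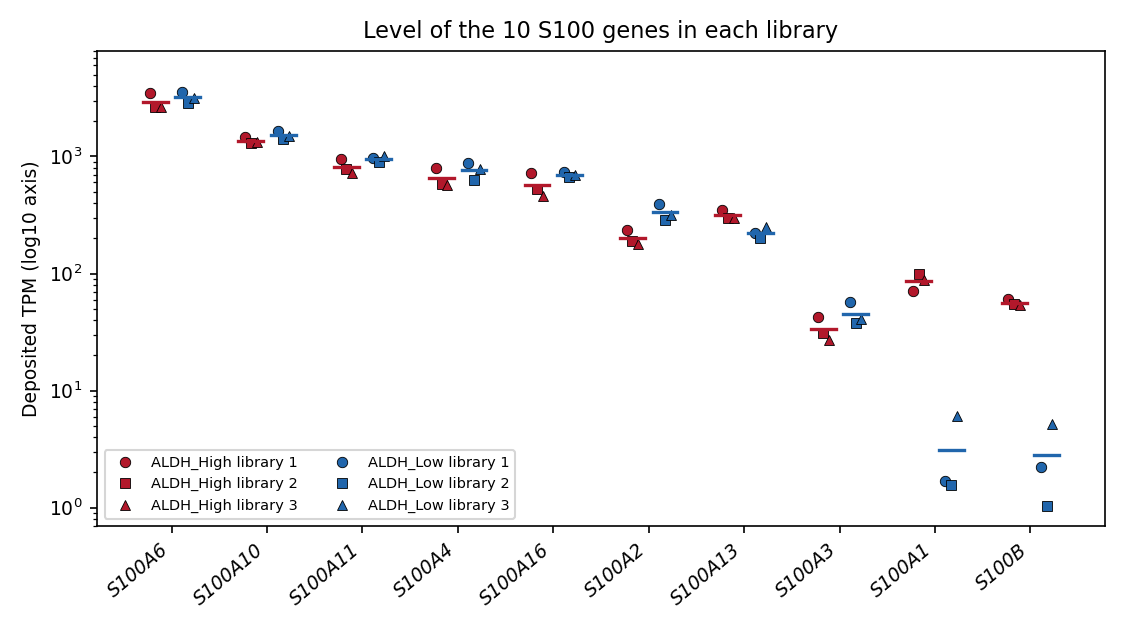
TPM of each S100 gene in each of the 6 libraries, on a log axis, with ALDH_High and ALDH_Low shown as separate points and group means as bars. The groups are separated by more than a factor of 10 only for S100B and S100A1, and S100A6 is the highest gene in every library.

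S100A2, a gene expressed in stratified epithelia, fell in ALDH_High. Its levels were 237, 189 and 177.5 TPM in ALDH_High 1, 2 and 3 and 392, 289 and 317 TPM in ALDH_Low 1, 2 and 3. All 3 ALDH_High libraries lay below all 3 ALDH_Low libraries. The log2 fold change was -0.76 (SE 0.17, edgeR quasi-likelihood adjusted p 0.0107), 1.70-fold lower. The call was lost without ALDH_High 2 (adjusted p 0.0535) and without ALDH_Low 1 (adjusted p 0.0504), with log2 fold changes of -0.68 and -0.63. It was also lost with limma on log2(TPM + 1) with no TPM filter (adjusted p 0.0545), where 2.44% of the genes were called lower, and at an edgeR threshold of 0.01, where 5.10% were. S100A2 is on chr1:153561108-153567890, minus strand (ENSG00000196754).

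S100A13, which takes part in the release of FGF1 and IL1A from cells without a signal peptide, had a point estimate on the high side. It was at 351, 300.0 and 300.2 TPM in ALDH_High 1, 2 and 3 and at 222, 200.4 and 248 TPM in ALDH_Low 1, 2 and 3. The groups did not overlap. The log2 fold change of 0.46 (SE 0.15) had an adjusted p of 0.0525 in edgeR's quasi-likelihood test and did not pass. It passed in 8 of 15 alternatives, among them DESeq2's Wald test (adjusted p 0.019), the fit without ALDH_High 3 (0.0482) and the fit without ALDH_Low 3 (0.047). For single genes the exact permutation test over 3 against 3 libraries cannot go below a two-sided p of 0.1, the value that S100B, S100A1, S100A2 and S100A13 each had.

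Exons of S100A13 and S100A1 lie on opposite strands and share 235 bases, 10.6% of the 2216 exon bases of S100A13 and 7.76% of the 3030 of S100A1. The sources used here do not say whether the counting used strand, so the part of these shared bases in either value was not tested. S100A13 also shares 536 exon bases on its own strand with AL162258.1, which was at 10.4 and 11.5 TPM on average in ALDH_High and ALDH_Low.

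The most abundant members were S100A6, which binds annexins and is found in proliferating cells, and S100A10, which forms a complex with annexin A2 at the plasma membrane. S100A6 was at 3486, 2645 and 2664 TPM in ALDH_High and at 3565, 2873 and 3173 TPM in ALDH_Low, and S100A10 was at 1455, 1299 and 1329 TPM in ALDH_High and at 1635, 1412 and 1487 TPM in ALDH_Low. For both genes the groups overlapped, with ALDH_High 1 above the lowest low library. In CPM, ALDH_High 1 stood above every low library for S100A6 (1347 against at most 1297.5). The log2 fold changes were -0.17 for S100A6 (adjusted p 0.54) and -0.20 for S100A10 (adjusted p 0.314, edgeR quasi-likelihood test).

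S100A4, which binds non-muscle myosin and is associated with metastasis, was at 804, 578 and 565 TPM in ALDH_High and at 884, 626 and 778 TPM in ALDH_Low. S100A11, another annexin-binding member, was at 949, 775 and 718 TPM in ALDH_High and at 965, 891 and 1001 TPM in ALDH_Low. S100A16, a widely expressed member, was at 717, 523 and 459.5 TPM in ALDH_High and at 734, 668 and 692 TPM in ALDH_Low. In TPM, ALDH_High 1 lay within the range of the low group for each of these genes. The other ALDH_High libraries lay below the whole low group. In CPM, ALDH_High 1 stood above every low library for S100A16 (557 against at most 536). Between libraries of the same number, TPM was lower in ALDH_High in 3 of 3 pairs for S100A3, S100A4, S100A6, S100A10, S100A11 and S100A16. CPM was lower in 2 of 3 pairs for S100A6, S100A11 and S100A16. The labels do not say what these numbers share. These genes also varied together over the 6 libraries (Pearson r of log2 CPM 0.88 to 0.99), so their pairs are not separate evidence. The log2 fold changes of S100A4, S100A11 and S100A16 were -0.27, -0.27 and -0.33, and none passed the threshold (edgeR quasi-likelihood adjusted p 0.391, 0.273 and 0.254).

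S100A3, a zinc-binding member known from the hair cuticle, was the lowest member in ALDH_High. It was at 42.9, 31.3 and 27.3 TPM in ALDH_High and at 57.0, 38.2 and 40.6 TPM in ALDH_Low. The groups overlapped through ALDH_High 1, and the log2 fold change was -0.46 (adjusted p 0.199, edgeR quasi-likelihood test). With the replicate number as a block the adjusted p of S100A3 was 0.046, and the number of members called lower was 2 in place of 1, beside 10.6% of all tested genes. S100A3 lies within the span of S100A4 on the same strand and shares no exon base with it.

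Library ALDH_High 1 stood apart from its group over all genes. Its counts differed from those of ALDH_High 2 and 3 by a chi-square of 45.6 and 56.1 per degree of freedom, against 13.5 between ALDH_High 2 and 3 and 22.6 to 28.8 between ALDH_Low libraries. In CPM it was the highest ALDH_High library for 9 of the 10 members, the exception being S100A1, and ALDH_High 3 was the lowest for 9 of 10. ALDH_Low 2 was the lowest ALDH_Low library for all 10. Without ALDH_High 1, edgeR called 6 members lower, namely S100A2, S100A3, S100A4, S100A6, S100A11 and S100A16, and 11.5% of all tested genes were called lower in that fit. The smallest changes behind these calls were -0.36 for S100A6 and -0.44 for S100A11. Without ALDH_High 2 and without ALDH_Low 1, 0 members were called lower, beside 6.18% and 6.86% of all tested genes. At an unadjusted p below 0.05, 1 member was lower in each of these fits, and DESeq2 and limma on log2(TPM + 1) over all 6 libraries each called 1. S100B and S100A1 were called higher in each of these fits.

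**Figure D3:**
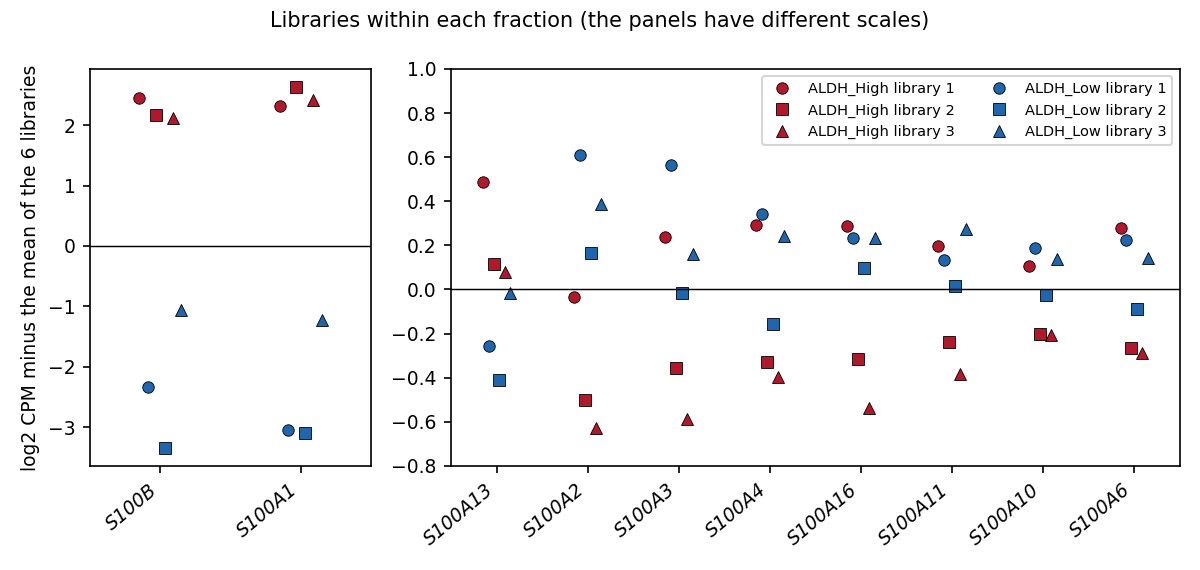
Deviation of each library from the mean of all 6 libraries (log2 CPM) for each S100 gene, with 1 point per library and separate scales for S100B and S100A1 (left) and the other 8 genes (right). ALDH_High 1 lies above the other 2 ALDH_High libraries for 9 of 10 genes.

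Within ALDH_High, mean TPM ordered the members as S100A6, S100A10, S100A11, S100A4, S100A16, S100A13, S100A2, S100A1, S100B and S100A3. Of neighbours in this order, S100A11 and S100A4 overlapped in their libraries, as did S100A4 and S100A16. In ALDH_Low the first 5 places were the same, followed by S100A2, S100A13, S100A3, S100A1 and S100B, with overlap between S100A4 and S100A16 and between S100A1 and S100B. Among all genes, S100A6 ranked 43 in ALDH_High and 42 in ALDH_Low. S100A1 ranked 1968 and 11809, and S100B ranked 2904 and 12095.

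In a list of 12 further genes, 11 S100 genes and the S100P-binding gene S100PBP, 4 were tested and 1 fell. S100A5, a little-studied member of the cluster, was at 2.12, 1.01 and 1.45 TPM in ALDH_High and at 9.02, 4.76 and 6.71 TPM in ALDH_Low. All ALDH_High libraries lay below all ALDH_Low libraries, and the log2 fold change was -2.20 (SE 0.41, edgeR quasi-likelihood adjusted p 0.00369). S100A14, S100P and S100PBP did not pass (log2 fold changes -0.92, -0.46 and 0.15). The inflammatory member S100A9 had 0 counts in each ALDH_High library and 10, 1 and 3 counts in ALDH_Low, and S100A7, S100A7A, S100A7L2, S100A8, S100A12 and S100G had 0 counts in every library. S100Z had 6 to 21 counts per library and was not tested. Among the fused-type genes, which carry an S100 domain in front of long repeats, TCHH, the hair follicle protein trichohyalin, fell by 1.56 on the log2 scale at a mean of 0.172 TPM in ALDH_High and 0.492 TPM in ALDH_Low.

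The other tested fused-type gene, FLG, the skin barrier protein filaggrin, was at 0.663, 7.90 and 7.67 TPM in ALDH_High and at 0.524, 2.18 and 2.39 TPM in ALDH_Low. Library 1 was the lowest of both groups, and the groups overlapped. The log2 fold change of FLG was 1.57 (SE 0.73, edgeR quasi-likelihood adjusted p 0.17). It was 1.30 and passed with the replicate block (adjusted p 0.00303), and 2.11 and passed without ALDH_High 1 (0.0128). With no low-count filter it was 1.58 and passed (3.84e-22), with an SE of 0.16 in place of 0.73. That small p goes with the smaller SE, since the libraries and their overlap were the same, and the reason for the smaller SE was not tested.

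Annexins are calcium-dependent membrane-binding proteins that pair with several S100 proteins. Of 11 tested, 0 rose and 7 fell, beside 10.8% and 9.83% of all tested genes. The median log2 fold change of the 11 was -0.69, beside -0.013 over all genes. At an unadjusted p below 0.05, 1 annexin was higher, and DESeq2 and limma on log2(TPM + 1) called 0 higher. The number of annexins called lower was 5 or 6 when 1 library was left out and 4 with limma on log2(TPM + 1). With limma's filter of a mean of at least 1 TPM, ANXA8 and ANXA9 were not tested and ANXA3 was lost (limma adjusted p 0.0694). ANXA3 was lost without any 1 library other than ALDH_Low 1 (edgeR quasi-likelihood adjusted p 0.0563 to 0.132), and ANXA7 without ALDH_High 2, ALDH_High 3, ALDH_Low 1 or ALDH_Low 2 (0.0598 to 0.0884). The 4 with the smallest p were ANXA10 (-3.65), ANXA8 (-3.37), ANXA6 (-0.77) and ANXA4 (-0.69). ANXA10 was at 0.689, 0.477 and 0.241 TPM in ALDH_High and at 7.14, 5.06 and 4.64 TPM in ALDH_Low, so the groups lay far apart at a low level. ANXA8 was lower still, at means of 0.147 TPM in ALDH_High and 1.49 TPM in ALDH_Low, with 8, 8 and 2 counts in ALDH_High. ANXA6, a more abundant annexin, was at 66.9, 55.6 and 56.7 TPM in ALDH_High and at 96.2, 102 and 97.6 TPM in ALDH_Low, again without overlap. The best-known partners of S100A10 and S100A11, ANXA2 (-0.25, adjusted p 0.109) and ANXA1 (0.29, adjusted p 0.144), did not pass. Without ALDH_High 1, ANXA1 passed with 0.42 (edgeR quasi-likelihood adjusted p 0.00912).

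Of 6 tested receptors for released S100 proteins, 2 rose and 1 fell, beside 10.8% and 9.83% of all tested genes. TLR4, which binds S100A8 and S100A9, was at 18.7 ± 1.38 TPM in ALDH_High and 10.2 ± 1.20 TPM in ALDH_Low (log2 fold change 0.82), and MCAM, a melanoma adhesion molecule, was at 293 ± 14.5 and 168 ± 14.4 TPM (0.75). ALCAM, an adhesion molecule of the immunoglobulin family, was at 13.8 ± 4.70 and 37.9 ± 8.45 TPM and fell by 1.52 on the log2 scale (SD, n = 3 each). AGER, which encodes RAGE, the receptor of S100B, was at 0.965, 3.18 and 3.18 TPM in ALDH_High and at 2.00, 2.59 and 1.69 TPM in ALDH_Low. The groups of AGER overlapped, and its log2 fold change of 0.15 (adjusted p 0.836, edgeR quasi-likelihood test) turned below 0 without ALDH_High 2 (-0.059) or ALDH_High 3 (-0.036).

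Of 18 tested intracellular partners, 1 rose and 4 fell, beside 10.8% and 9.83% of all tested genes. The median of the 18 was 0.010. MDM2, a ubiquitin ligase, rose (log2 fold change 0.99), and the cytoskeletal scaffold genes AHNAK (-0.62), IQGAP1 (-0.42) and MYH9 (-0.38) and the stress-induced gene NDRG1 (-0.71) fell. Several of these calls by edgeR's quasi-likelihood test were lost when 1 library was left out. MDM2 was not called without ALDH_High 3 (adjusted p 0.092), ALDH_Low 2 (0.103) or ALDH_Low 3 (0.126) or with DESeq2's Wald test (0.0733). Among the edgeR fits that leave out 1 library, MYH9 was called only without ALDH_Low 1 (adjusted p 0.0626 to 0.163 in the others). Limma on log2(TPM + 1) over all 6 libraries did not call MDM2 (adjusted p 0.0629), MYH9 (0.129) or NDRG1 (0.0759). IQGAP1 was lost without ALDH_High 2, ALDH_High 3, ALDH_Low 1 or ALDH_Low 3 (0.0545 to 0.0659), and NDRG1 without ALDH_High 3, ALDH_Low 2 or ALDH_Low 3 (0.0546 to 0.0999). AHNAK was called in each fit without 1 library but not with limma on log2(TPM + 1) (adjusted p 0.0501), or on the same values with no TPM filter (0.11).

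The genes that act with S100A13 in release split. SPHK1, a sphingosine kinase, was at 7.54, 5.63 and 4.86 TPM in ALDH_High and at 27.1, 25.6 and 20.7 TPM in ALDH_Low and fell (log2 fold change -2.06). IL1A, an inflammatory cytokine, was at 2.52, 2.10 and 1.54 TPM in ALDH_High and at 0.971, 0.493 and 0.891 TPM in ALDH_Low and rose (1.33), with no call without ALDH_High 1, ALDH_High 2, ALDH_Low 2 or ALDH_Low 3 (edgeR quasi-likelihood adjusted p 0.0548 to 0.0866). FGF1 did not pass (-0.53). Of 6 tested genes that act with S100A10 at the plasma membrane, PLAT, tissue plasminogen activator, rose (2.14) and AHNAK fell.

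**Figure D4:**
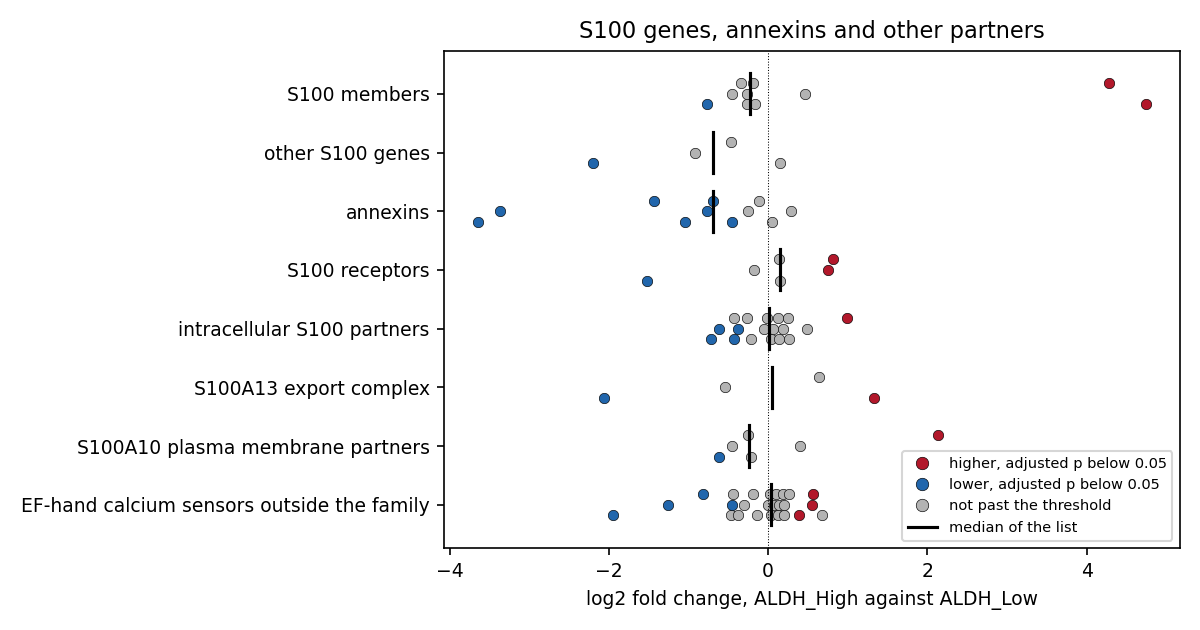
Log2 fold changes of the tested genes in each list of S100-related genes, 1 point per gene, with the list median. Annexins lie mostly below 0 (median -0.69), and the intracellular partners spread around 0 (median 0.010).

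Of 25 tested EF-hand genes outside the family, 3 rose and 4 fell, 7 in all, beside 20.6% of all tested genes called. Without ALDH_High 1, 8 fell, beside 11.5% of all tested genes called lower in that fit. CALU and NUCB1, calcium-binding proteins of the secretory pathway, rose by 0.55 and 0.57 on the log2 scale. The neuronal calcium buffers CALB2 (-1.26) and CALB1 (-1.95) and the integrin-binding CIB1 (-0.82) fell. RCN2 (0.38) and CAPN2, a calpain (-0.45), also passed, but RCN2 was lost with upper-quartile scaling (adjusted p 0.0528) and without any library other than ALDH_High 1 (adjusted p 0.0567 to 0.127) and CAPN2 without ALDH_High 2, ALDH_High 3, ALDH_Low 1 or ALDH_Low 2 (0.0599 to 0.101).

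Around S100A1, 15 tested genes had annotated starts within 250 kb. By edgeR's test 0 of them rose, beside 10.8% of all tested genes, and 15 genes are too few to tell these apart. At an unadjusted p below 0.05, by DESeq2 and by limma on log2(TPM + 1), 1 of them, S100A13, was higher. S100A5, S100A2 and SNAPIN, a vesicle protein gene, fell, beside 9.83% of all tested genes, and the median of the 15 was -0.27. The 15 include the members S100A2, S100A3, S100A4, S100A6, S100A13 and S100A16, so this count and median partly repeat the values given above. SNAPIN (-0.35) was called in the full fit (adjusted p 0.0481) but not with the replicate block (adjusted p 0.0724), DESeq2's Wald test (adjusted p 0.0589) or, among the fits that leave out 1 library, in any but that without ALDH_High 1 (edgeR quasi-likelihood adjusted p 0.102 to 0.174). Around S100B, 9 tested genes lay within 500 kb and 0 passed, beside 20.6% of all tested genes. The 9 had log2 fold changes from -0.72 to 0.25. Of these 9, 2 had an unadjusted p below 0.05 in edgeR's test, and DESeq2 and limma called 0. PRMT2, the nearest tested gene at 30.4 kb, had -0.17. Farther off in the same chromosome band, COL6A2, a collagen VI chain gene, rose by 1.23.

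**Figure D5:**
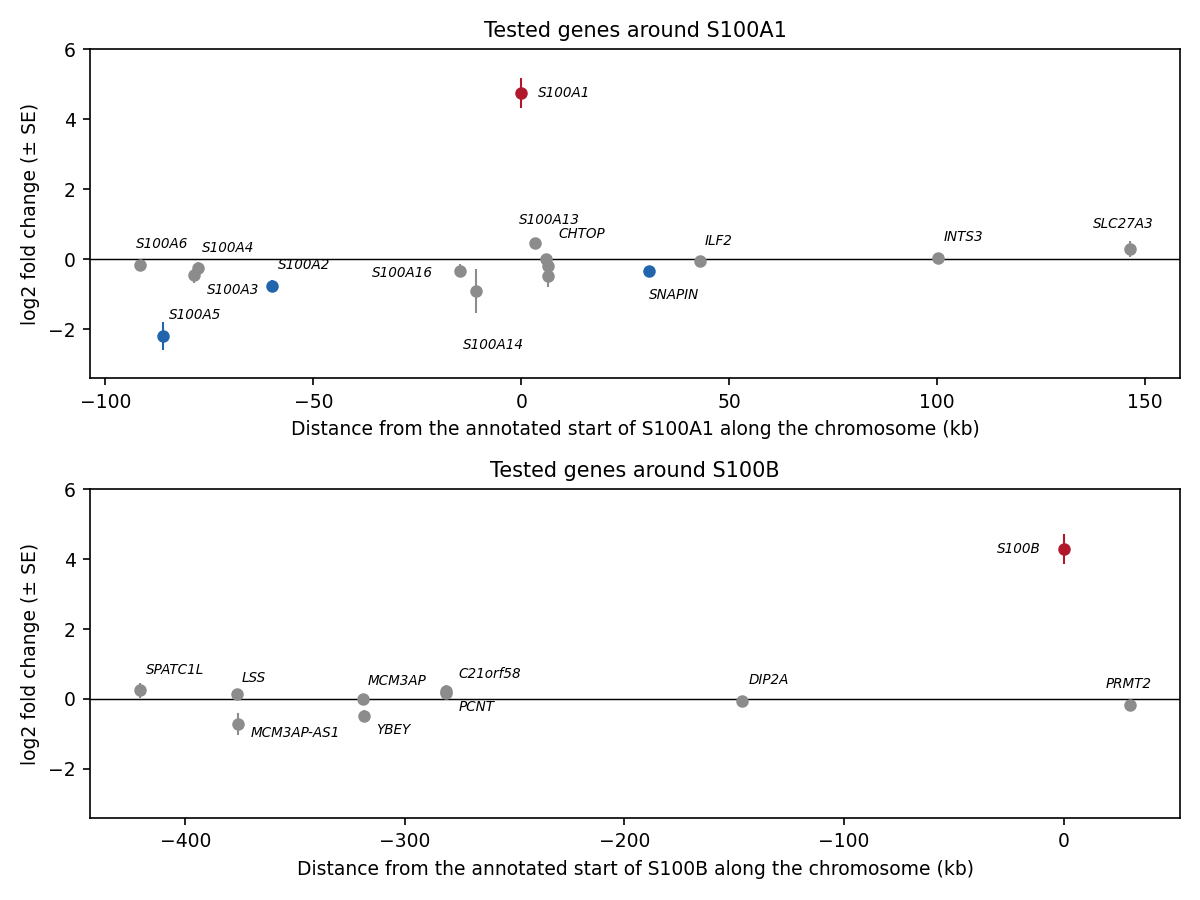
Log2 fold change (± SE) of tested genes by distance in kb from the annotated start of S100A1 (top) and of S100B (bottom), with genes called higher in red, called lower in blue and others in grey. S100A1 and S100B stand alone above 4, and no neighbour shown was called higher by edgeR.

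By rule, the genes most like S100B and S100A1 over the 6 libraries were taken from 9518 genes of at least 10 mean CPM, by Pearson r of log2 CPM. For S100B they were SOD3 (0.999), CTNNBL1 (0.999) and HTRA1 (0.999), and for S100A1 they were SERPINA3 (0.999), HHEX (0.998) and MICAL1 (0.997). The size of the difference varied among them, with log2 fold changes of 4.77 for SOD3, the extracellular superoxide dismutase, 5.83 for SERPINA3, a secreted protease inhibitor, and 0.34 for CTNNBL1. With 2 groups of 3 libraries such an r mainly measures the step between the groups, and 297 genes reached at least 0.95 with S100B.

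Markers of other cell types were compared as summed TPM beside these results. The 7 leukocyte markers summed to 14.7 to 27.9 TPM in ALDH_High and 50.4 to 63.8 TPM in ALDH_Low, mostly from CD68, a lysosomal protein gene (15.7 ± 4.32 and 55.8 ± 7.52 TPM, SD, n = 3), while PTPRC stayed near 0. Of the 4 tested, LYZ rose and CD68 and CD14 fell. LYZ was not called without any 1 of the ALDH_Low libraries (edgeR quasi-likelihood adjusted p 0.0548 to 0.0897), nor CD14 without ALDH_High 2, ALDH_Low 2 or ALDH_Low 3 (0.0599 to 0.065). The 6 fibroblast markers summed to 9.65 to 12.4 and 6.38 to 7.91 TPM, with 0 of 5 tested called by edgeR (2 at an unadjusted p below 0.05, 1 by DESeq2 and 0 by limma). The 7 keratinocyte markers summed to 98.5 to 132 and 99.7 to 124 TPM, mostly from KRT10 (means of 95.6 and 100 TPM, not called). Of 3 tested, KRT5 was lower (-3.63) at a low level, with means of 0.130 and 1.67 TPM. KRT14 had means of 18.9 and 12.2 TPM and a point estimate on the high side (0.58), and was not called. The part of these markers in the S100 differences was not tested.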

How the data were processed

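RNA from 6 libraries of sorted A375 cells was analysed. The authors deposited estimated counts and TPM per gene, and a table of log2 coefficients, per the file headers. The submitters' processing notes name STAR 2.5.1b, HTSeq 0.6.1, FastQC 0.11.3, DESeq2 and GRCh38, and how each was used is not given in the sources used here. The deposited counts were whole and were taken as rounded estimated counts, since 133 to 177 genes per library had 0 counts beside a TPM above 0. Genes with an identifier but no symbol held 0.0213 to 0.0267% of the counts and stayed in.

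Tests used edgeR 4.0.16 in R 4.3.3: TMM factors, filterByExpr, glmQLFit and glmQLFTest, two-sided, with Benjamini-Hochberg adjustment over 17047 genes and a threshold of 0.05. Total counts of 26692868 to 37830603 per library set the precision. Alternatives were DESeq2 1.42.0, limma 3.58.1 on log2(TPM + 1) and log2(TPM + 0.1), other scaling factors, other filters, a threshold of 0.01, a replicate block and leaving out each library. The scripts were tested on simulated data.

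All 10 members are named. In each list the genes past the threshold are named, at most the 4 with the smallest p in each direction, and for likeness the 3 genes with the highest r. Partners, receptors, marker genes and neighbours that did not pass were named for their known role, after their values were seen. A listed gene is not reported here. Members and lists were chosen with earlier results of these data known. Positions are from GENCODE 44 (GRCh38), promoters from RefSeq (GRCh38.p14).

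Same-numbered libraries correlated in their deviations from the group means by 0.199, 0.134 and 0.114 over 14071 genes of at least 1 CPM, and by 0.150, 0.076 and 0.109 over all tested genes. The numbers come from the labels, which do not say what they share. The reported tests did not use the numbers, and pairing by number entered the tests only as the replicate block among the alternatives.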

Additional observations from a re-analysis of the deposited data

How the results depend on the processing

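S100B and S100A1 were called higher in all 15 alternative fits, with log2 fold changes of 3.89 to 5.06 and 4.43 to 5.67. The number of S100 genes called lower, 1 in the reported fit, was 2 with the replicate block, and 0 with limma on log2(TPM + 1) with no TPM filter and at an adjusted p below 0.01. It ranged from 0 to 6 when 1 library was left out. All genes past the threshold numbered 3513 as reported, 2006 with limma on unfiltered log2(TPM + 1) and 1930 at 0.01. Of these, 1155 and 1060 were higher, beside 1838, and 851 and 870 were lower, beside 1675. With limma on filtered values, 1047 (TPM + 1) and 1051 (TPM + 0.1) were lower, and leaving out 1 library gave 1073 to 2049 lower. The causes of these differences were not tested. Among the named genes, 3 that did not pass changed sign when 1 library was left out, S100PBP (-0.045 to 0.29), AGER (-0.059 to 0.52) and BSG (-0.016 to 0.25). Of 57 genes followed through the alternatives, 38 were called in the reported fit. With its TPM filter, limma on log2(TPM + 1) tested 51 of the 57 and ended 7 calls (adjusted p 0.0501 to 0.129). Without the filter it tested all 57 and ended 17 calls (0.0504 to 0.231), among them those of AHNAK, MDM2, NDRG1, MYH9, IL1A and LYZ. The 17 also include TCHH, ANXA8, ANXA9, KRT5 and CD14, which were not tested with the filter, so the 7 and the 17 are over unlike sets of genes. Leaving out 1 library ended 3 to 11. The replicate block ended the SNAPIN call and made those of S100A3 and FLG, and it changed no other call among the genes followed. S100B and S100A1 had 17 to 88 counts per ALDH_Low library, the fewest behind any called S100 member, and their low libraries also differed among themselves.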
